A study of Homo sapiens with 16 samples.

Results

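The EGR and IER immediate early genes are 7 genes, EGR1, EGR2, EGR3, EGR4, IER2, IER3 and IER5, and they are described here by the CUT&Tag signal on and around them. Of the 74404 peak intervals counted in the study, 22 overlapped one of these genes or lay within 10 kb of one of their GENCODE release 44 transcript starts, 11 at EGR genes and 11 at IER genes. Among these 22, 13 also lay within 500 bp of a transcript start of another gene. The genes were chosen by measured values: sorbitol responses of these same libraries, EGR1 among them, were known when the 7 were proposed. Their sorbitol responses are therefore given as descriptions, with no p-value, and support nothing further. The cells were HEK293, a human embryonic kidney line, with the genotype eGFP-YAP, in which YAP1, a transcriptional coactivator, carries a fluorescent tag. All cells had been starved of serum before treatment, per the series design. They then had vehicle, or sorbitol, an osmolyte that draws water from cells, at 200 mM for 1 h, and each of 4 targets was profiled in 2 libraries per treatment, 16 libraries in all. The targets were CTCF (an insulator protein), RAD21 (a cohesin subunit), H3K27ac (an acetyl mark of active promoters and enhancers) and eGFP-YAP, read with an antibody against GFP and called YAP1. The labels do not say whether the 2 libraries of a group came from separate cultures or whether the line is 1 clone, so the spread between them may be technical.

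Immediate early genes are induced within minutes of a stimulus, without new protein synthesis, because the factors that switch them on are already present. The best known of these factors is SRF, which binds the CArG box together with cofactors of the ELK family, activated by ERK kinases, or of the MRTF family. EGR1 to EGR4 encode zinc finger transcription factors that bind GC-rich DNA, and the corepressors NAB1 and NAB2 hold some of them, EGR1 included, in check. IER2 and IER5 encode nuclear proteins of one family, and IER3 encodes a small unrelated protein known for effects on cell survival. These genes are short, so that the whole transcribed unit can lie under a few peak intervals.

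EGR1 and EGR2 share a CArG box, and IER5 had no exact box in the 250 bases before its start. With sorbitol the start intervals of EGR1 and IER5 were both higher for CTCF and lower for H3K27ac. Neither start interval of EGR2 was higher for CTCF. Whether the box has a part in these responses was not tested. The bases just before the start of EGR1, EGR2 and IER5 are from the RefSeq promoter table of GRCh38.p14. It held 5 of the 7 members, EGR1, EGR2, EGR4, IER2 and IER5. For EGR1 (chr5:138465229-138465478, plus strand) and IER5 (chr1:181088450-181088699, plus strand) the 250 bases before the start are printed. For EGR2 (chr10:62816418-62816447, minus strand) 30 bases around the box are printed. Capitals mark exact CArG boxes.
EGR1: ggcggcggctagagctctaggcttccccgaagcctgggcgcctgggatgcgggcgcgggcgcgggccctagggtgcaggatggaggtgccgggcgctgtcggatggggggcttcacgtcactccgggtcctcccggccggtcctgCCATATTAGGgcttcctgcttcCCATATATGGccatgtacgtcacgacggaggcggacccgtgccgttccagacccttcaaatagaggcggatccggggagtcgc
EGR2: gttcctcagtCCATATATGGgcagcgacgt
IER5: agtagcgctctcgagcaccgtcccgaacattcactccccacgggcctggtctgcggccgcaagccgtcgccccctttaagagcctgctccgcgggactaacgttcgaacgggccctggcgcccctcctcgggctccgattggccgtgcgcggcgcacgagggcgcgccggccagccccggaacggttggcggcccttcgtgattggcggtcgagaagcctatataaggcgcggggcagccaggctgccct
EGR1 held 2 exact CArG boxes, from 105 to 96 and from 83 to 74 bases before the start. The second has the same 10 letters as the only exact box of EGR2, which lies 71 to 62 bases before its start. An exact CArG box on either strand was present in the 300 bases before the start of 1.4% of 20007 protein-coding genes and in 2 of the 5 members searched. The letters GCGNGGGCG, a site for EGR proteins themselves, were in the EGR1 window alone among the 5, and in 13.4% of all windows. None of the 5 windows held the CRE letters TGACGTCA (2.58% of all windows), the AP-1 letters TGANTCA (5.75%), the TEAD letters GGAATG (12.2%) or the CTCF consensus with at most 1 mismatch (3.44%). These counts change with the search: in 1000 bases the TEAD letters were in 3 of the 5 (EGR2, EGR4 and IER2) and in 40.6% of all windows, and with 1 mismatch a CArG box was in all 5 and in 18% of all 300-base windows. In the central 300 bases of the 22 intervals the CTCF consensus was not found, against 16.5% of all 74404 intervals. An exact CArG box was present there in EGR1's start interval and in an IER2 interval (chr19:13151854-13151863), and in 1.17% of all intervals.

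The libraries differed in depth and background. Total counts ranged from 1187939 in a RAD21 library with vehicle to 8842656 in an H3K27ac library with sorbitol. The mitochondrial share rose with sorbitol from 15.7% and 19.9% to 32.8% and 33.9% for CTCF, and from 36.5% and 38.1% to 55.4% and 57.8% for YAP1. For RAD21 it rose from 34.3% and 38.5% to 44.8% and 46% and for H3K27ac it was between 1.95% and 2.08% in all 4 libraries. Levels are therefore given as CPM, counts divided by the TMM-scaled library size; this scaling takes the typical interval as unchanged, and the part of this background in the results was not tested. PAX2, LIN28B, NEFL and NEFM, genes active in HEK293 cells, had H3K27ac at their starts in vehicle, with LIN28B at 64.3 and 59.3 CPM. The defining genes of leukocytes, hepatocytes, basal epithelium and muscle that were looked up, PTPRC, ALB, KRT5 and MYOD1, had no interval at their starts.

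EGR1 lies on chromosome 5 from 138465479 to 138469303, on the plus strand, and had 2 intervals. The start site interval (chr5:138463916-138466561) spans the promoter and the first part of the gene, and also holds the start of the uncharacterised gene ENSG00000289267. CTCF at this interval was 98.1 and 104 CPM with vehicle and 389 and 387 CPM with sorbitol, which gives 1.94 ± 0.12 as log2 fold change (standard error, here and below). With offsets corrected for GC content this CTCF log2 fold change was 1.16. RAD21 was 46.4 and 43.4 CPM with vehicle and 194 and 149 CPM with sorbitol, a log2 fold change of 1.93 ± 0.28. YAP1 was 43.3 and 38.5 CPM with vehicle and 205 and 204 CPM with sorbitol, a log2 fold change of 2.32 ± 0.19. In these 3 targets both sorbitol libraries lay far above both vehicle libraries. H3K27ac at the same interval went the other way, from 121 CPM in both vehicle libraries to 46.8 and 49 CPM, a log2 fold change of -1.34 ± 0.08.

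The gene body interval of EGR1 (chr5:138466651-138467537) lies in the coding sequence, 1172 bp downstream of the start. With vehicle it was close to empty in every target. CTCF there was 1.71 and 2.6 CPM with vehicle, from 11 counts in each library, and 147 and 166 CPM with sorbitol, a log2 fold change of 6.22 ± 0.21. RAD21 was 2.19 and 1.77 CPM with vehicle, from 6 and 2 counts, and 58.2 and 60.2 CPM with sorbitol, a log2 fold change of 4.79 ± 0.44. YAP1 was 1.46 and 3.16 CPM with vehicle and 83.4 and 61.8 CPM with sorbitol, a log2 fold change of 5.01 ± 0.31. The sorbitol level of all 3 proteins in the coding sequence was thus many times the vehicle level, in both libraries. H3K27ac was low and overlapped between treatments there, at 4.84 and 3.27 CPM with vehicle and 2.92 and 4.97 CPM with sorbitol. Per length, CTCF went from 38.2 to 147 CPM per kb at the start and from 2.43 to 177 CPM per kb in the body, so that the body reached the density of the start.

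**Figure D1:**
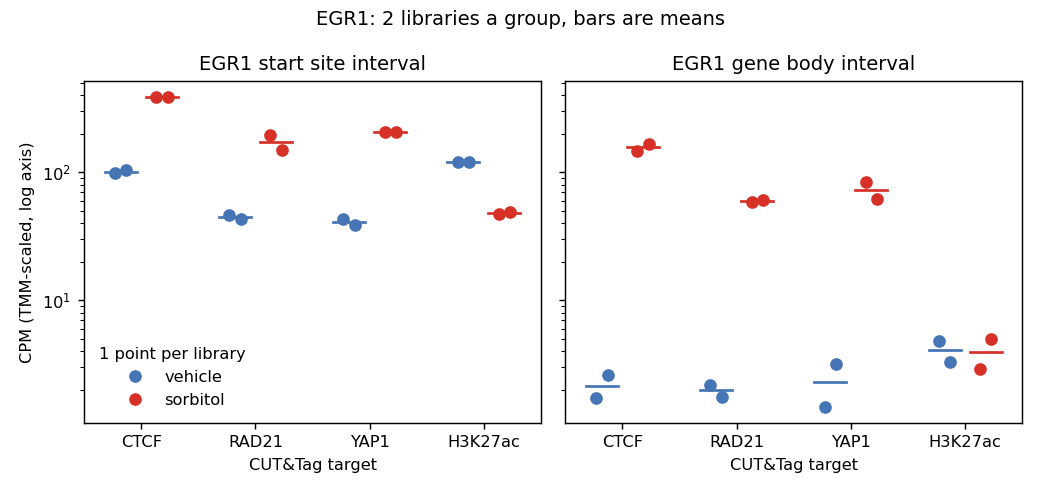
CPM (TMM-scaled, log axis) of the EGR1 start site interval, left, and gene body interval, right, for the 4 CUT&Tag targets; each point is 1 library and each bar the mean of 2 libraries, vehicle in blue and sorbitol in red. CTCF, RAD21 and YAP1 lie higher with sorbitol in both intervals, while H3K27ac lies lower at the start, near 48 against 121 CPM, and overlaps in the body.

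EGR2 (chr10, 62811996 to 62819167, minus strand), whose product is a regulator of hindbrain patterning and myelination, had 4 intervals and did not follow EGR1. Its stronger start site interval (chr10:62817877-62818352) lies in an intron near an alternative transcript start. CTCF there was 10.2 and 12.8 CPM with vehicle and 4.66 and 5.4 CPM with sorbitol, a log2 fold change of -1.18 ± 0.41. H3K27ac was 9.19 and 9.64 CPM with vehicle and 4.32 and 3.35 CPM with sorbitol, a log2 fold change of -1.28 ± 0.29. Both were lower with sorbitol in both libraries, although the CTCF call was lost with DESeq2, when scaled to the weakest intervals and without any 1 of 3 libraries (either vehicle library or sorbitol replicate 1). RAD21 had 23 and 4 counts against 3 and 0 counts and was too low to test, and YAP1 was 3.73 and 3.55 CPM with vehicle against 4.77 and 4.23 CPM with sorbitol. The gene body interval (chr10:62817187-62817537) overlaps the gene in an intron, at -1171 to -821 bp from the canonical start, so upstream of that start. It held at most 14 CTCF, 7 RAD21 and 12 YAP1 counts in a library. The start interval that contains the CArG box (chr10:62816386-62816779) had overlapping CTCF groups in CPM, at 2.48 and 3.31 with vehicle and 0.517 and 4.42 with sorbitol. These came from 16 and 14 against 1 and 9 counts. RAD21 overlapped in CPM as well and was too low to test. YAP1 (3.89 and 3.75 against 2.98 and 1.69 CPM) and H3K27ac (6.61 and 9.97 against 5.29 and 5.96 CPM) lay lower with sorbitol and did not pass. The fourth EGR2 interval is the promoter of ADO, an enzyme gene, and its H3K27ac went from 124 and 148 to 84.3 and 92.6 CPM.

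EGR3 (chr8, 22687659 to 22693480, minus strand) and EGR4 (chr2, 73290929 to 73293701, minus strand) had no interval within 500 bp of a transcript start. The EGR3 gene body interval (chr8:22689818-22690307), in the untranslated region and also at the start of ENSG00000253125, held 4 and 2 CTCF counts with vehicle and 58 and 55 with sorbitol. This is 0.621 and 0.473 CPM against 30.0 and 27 CPM. RAD21 held 1 and 0 counts against 5 and 3, YAP1 7 and 4 against 4 and 2, and H3K27ac 0 and 6 against 7 and 5, all too low to test. The sorbitol signal at this interval was thus seen for CTCF, at a level set by very few vehicle counts, and whether the other targets differ was not detectable at this depth. Of the 2 flanking intervals upstream of EGR3, the larger (chr8:22694672-22696007) had CTCF at 9.62 and 10.4 CPM with vehicle and 25.4 and 16.7 CPM with sorbitol. The single interval in EGR4 (chr2:73291147-73291508) held at most 24 CTCF counts and at most 6 counts of any other target in a library, and passed the count filter for no target.

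IER2 (chr19, 13150411 to 13154911, plus strand) had 6 intervals, of which 5 run from the promoter shared with STX10, a syntaxin gene, to the 3′ end, and 1 is a flank 9383 bp from a start, inside NACC1. At the start site interval with the most signal (chr19:13151442-13152185), over an internal transcript start, CTCF was 17.2 and 13.7 CPM with vehicle and 31 and 42.2 CPM with sorbitol, a log2 fold change of 1.23 ± 0.23 that was 0.24 without a call under total-count scaling. RAD21 there was 26.3 and 16.8 CPM against 40.4 and 48.8 CPM and did not pass. YAP1 was 29.7 and 34.4 CPM with vehicle and 30.4 and 31.3 CPM with sorbitol, so these groups overlapped in level, although under total-count scaling the log2 fold change was -1.48 and called lower. H3K27ac was 47.7 and 55.9 CPM with vehicle and 21.1 and 19.3 CPM with sorbitol, a log2 fold change of -1.36 ± 0.13.

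The gene body of IER2 moved more than its start. At its strongest body interval (chr19:13152755-13153593), in the coding sequence and at the starts of 2 noncoding genes of the other strand, CTCF was 8.85 and 6.86 CPM with vehicle and 74 and 67.7 CPM with sorbitol, a log2 fold change of 3.14 ± 0.21. With GC-corrected offsets this CTCF value was 2.43. RAD21 was 9.5 and 6.2 CPM against 23.7 and 42 CPM, a log2 fold change of 1.98 ± 0.47 whose call was lost without RAD21 sorbitol replicate 2, with GC-corrected offsets and under total-count scaling. YAP1 was 12.5 and 13.8 CPM with vehicle and 39.3 and 29.6 CPM with sorbitol, a log2 fold change of 1.41 ± 0.26 that came to -0.01 under total-count scaling. H3K27ac was 44.2 and 53 CPM with vehicle and 16.1 and 16 CPM with sorbitol. Over the same 839 bp both sorbitol libraries thus lay above both vehicle libraries for CTCF and below them for H3K27ac. The interval nearest outside the 10 kb limit lies 10753 bp from an IER2 start (chr19:13162728-13164248). It had CTCF at 12.3 and 12.1 against 49.7 and 58.9 CPM and H3K27ac at 49.5 and 50.5 against 14 and 14.3 CPM. The farthest member inside the limit is the ADO promoter interval, 9897 bp from an EGR2 start, with CTCF at 7.14 and 6.62 against 9.31 and 5.89 CPM.

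IER3 (chr6, 30743199 to 30744548, minus strand) had a start site interval (chr6:30743630-30744733) that covers most of the gene. This interval also lies at a start of HCG20 and overlaps IER3-AS1. CTCF was 12.1 and 12.8 CPM with vehicle and 82.3 and 83.9 CPM with sorbitol, a log2 fold change of 2.74 ± 0.18. RAD21 was 13.5 and 17.7 CPM with vehicle and 53.2 and 45.4 CPM with sorbitol, a log2 fold change of 1.69 ± 0.35 whose call was lost without RAD21 vehicle replicate 1 and under total-count scaling. YAP1 was 9.73 and 9.67 CPM with vehicle and 41.1 and 44 CPM with sorbitol, a log2 fold change of 2.12 ± 0.25. H3K27ac was 35.6 and 31.4 CPM against 15.3 and 10.1 CPM, so that, as at EGR1, the 3 proteins lay higher and the mark lower with no overlap between groups. The second interval (chr6:30741915-30743484), over the end of IER3 and the starts of FLOT1, HCG20 and IER3-AS1, had CTCF at 9.47 and 12.1 CPM with vehicle and 66.7 and 61.8 CPM with sorbitol. Its YAP1 was 17 and 14.8 CPM against 29.2 and 43.2 CPM, a log2 fold change of 1.15 ± 0.26 that was -0.29 under total-count scaling. That YAP1 call was lost without any 1 of 3 libraries (either vehicle replicate or sorbitol replicate 2), without the count filter and in one fit on 16 libraries, and signal there cannot be assigned to one of the 4 genes.

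IER5 (chr1, 181088700 to 181092900, plus strand) has a single exon, and its start site interval (chr1:181088307-181090450) reaches into the coding sequence. This interval also lies at a start of the gene ENSG00000289589. CTCF was 13.8 and 14.2 CPM with vehicle and 66.7 and 75.6 CPM with sorbitol, a log2 fold change of 2.35 ± 0.19. RAD21 was 24.1 and 29.2 CPM against 47.3 and 32.9 CPM and did not pass. YAP1 was 19.9 and 19.5 CPM with vehicle and 46.5 and 38.9 CPM with sorbitol, a log2 fold change of 1.12 ± 0.22 whose call was lost without either vehicle replicate, without the count filter and in one fit on 16 libraries, and which was -0.3 under total-count scaling. H3K27ac was 142 and 138 CPM with vehicle and 89.5 and 86.7 CPM with sorbitol, a log2 fold change of -0.67 ± 0.07. A small interval upstream (chr1:181084195-181084695) went against its promoter: CTCF was 10.9 and 10.4 CPM with vehicle and 1.55 and 1.96 CPM with sorbitol. RAD21 there was 9.86 and 13.3 CPM against 1.97 and 4.54 CPM and did not pass, and H3K27ac was 5.64 and 4.58 against 1.51 and 1.37 CPM. With a GC content of 46.1% this interval was the most AT-rich of the 22, whose median was 65.8% against 54.2% over all intervals. A flank 6232 bp downstream of the start had YAP1 at 5.19 and 5.92 CPM with vehicle and 1.19 and 0 CPM with sorbitol. Its log2 fold change of -2.94 ± 0.9 came from 2 and 0 sorbitol counts and did not pass.

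**Figure D2:**
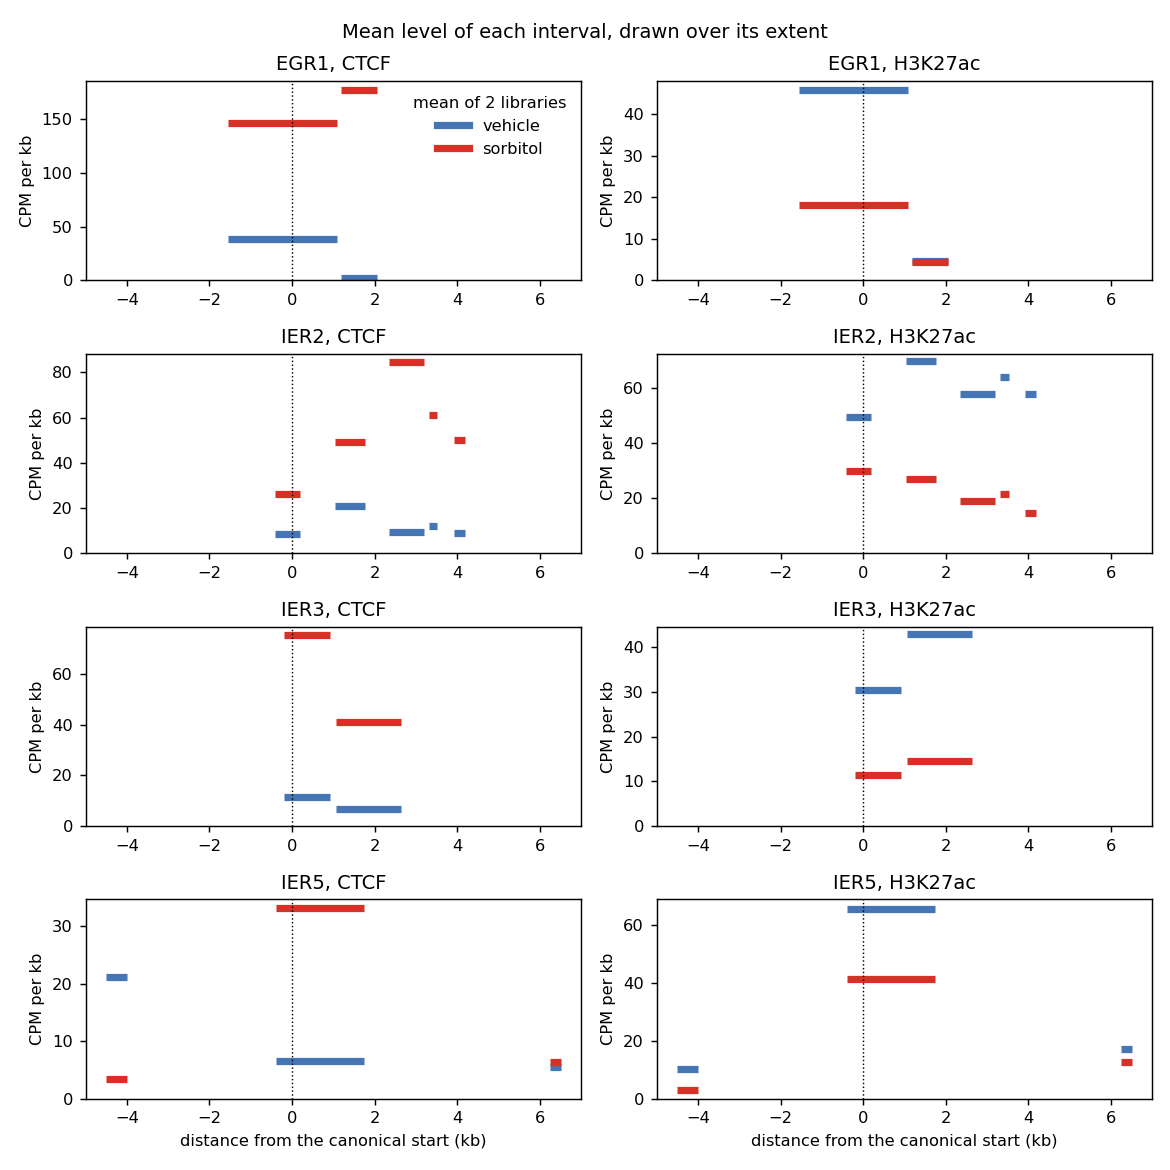
Mean CPM per kb of the intervals at EGR1, IER2, IER3 and IER5 for CTCF, left, and H3K27ac, right, each bar drawn over the interval's extent relative to the canonical start (kb); vehicle in blue, sorbitol in red, mean of 2 libraries. CTCF with sorbitol covers both start and body, reaching 177 CPM per kb in the EGR1 body, while H3K27ac is lower with sorbitol over the same intervals apart from the EGR1 body, where the bars coincide.

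Counted over the 22 intervals, calls are those with a Benjamini-Hochberg adjusted p under 0.05 in edgeR over all tested intervals of a target. For CTCF 17 member intervals had enough counts to test, 12 were higher and 2 lower with sorbitol, where 19.5% of all tested intervals were higher and 20.7% lower. For RAD21 11 were tested, 4 were higher and 0 lower, beside 3.34% higher and 1.45% lower of all. For YAP1 15 were tested, 6 were higher and 0 lower, beside 5.34% and 1.49% of all. Without the count filter 4 were higher and 1 lower for YAP1, beside 1.29% and 2.06% of all. For H3K27ac 20 were tested, 0 were higher and 14 lower, beside 8.59% and 14.5% of all. The median log2 fold change of the tested members was 1.94 (CTCF), 0.92 (RAD21), 0.46 (YAP1) and -1.13 (H3K27ac), against medians between -0.06 and 0.02 over all tested intervals. Intervals that passed the filter through their sorbitol counts alone had to differ, and the genes were chosen on this contrast, so nothing is read from these counts. With GC-corrected offsets the CTCF median of the members was 1.13, with 10 higher and 2 lower, beside 13.9% and 17.2% of all tested intervals. With replicate number as a block as well, 8 were higher and 2 lower, beside 12% and 14.1% of all.

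The 4 intervals higher for RAD21 were also higher for CTCF and YAP1, and they were the start and body of EGR1, the IER2 body interval described above and the IER3 start. Of the 12 intervals higher for CTCF, 10 were lower for H3K27ac and 6 were higher for YAP1. Over all intervals, 35.1% of those higher for CTCF were lower for H3K27ac and 12.5% were higher for YAP1. Of all intervals higher for RAD21, 88.2% were higher for CTCF and 52.8% for YAP1. The genes were chosen on these contrasts, so no difference from the other intervals is read from these shares. The 2 intervals lower for CTCF, at the alternative EGR2 start and upstream of IER5, were lower for H3K27ac as well. Of all intervals lower for CTCF, 4.71% were lower for H3K27ac, and no difference is read from this share either. By family, 4 of 8 tested EGR intervals and 8 of 9 tested IER intervals were higher for CTCF, beside 19.5% of all tested intervals. The EGR calls lay at EGR1 and EGR3 and most IER calls at IER2. Intervals of the same gene are not replicates, so no difference between the families is read from these counts.

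**Figure D3:**
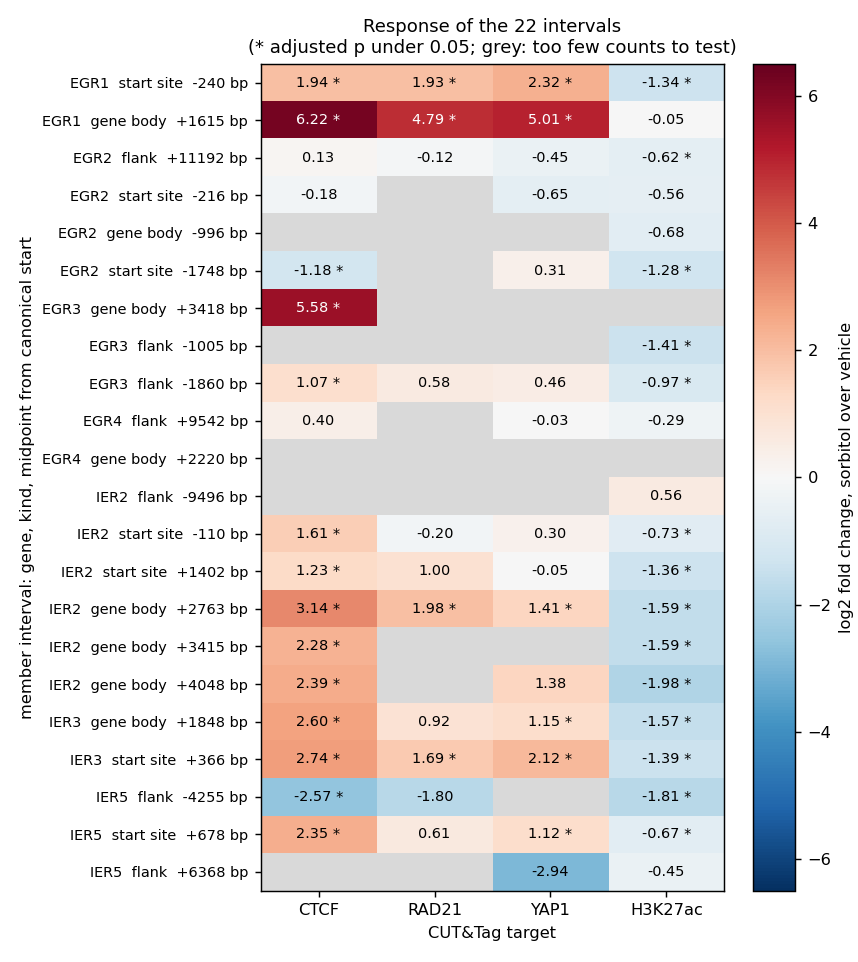
Log2 fold change, sorbitol over vehicle, of the 22 member intervals (rows, with kind and midpoint in bp from the canonical start) in the 4 targets (columns); red is higher with sorbitol, blue lower, grey too few counts to test, and a star marks adjusted p under 0.05. CTCF is red at 12 starred intervals, up to 6.22 at the EGR1 body, H3K27ac is blue at 14, and the 2 starred falls of CTCF lie at EGR2 and IER5.

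The scaling sets the zero point of these changes. When libraries were scaled to their total counts, mitochondrial counts included, the median over all tested intervals was -1.04 in CTCF libraries, -0.60 in RAD21, -1.46 in YAP1 and 0.17 in H3K27ac. Member calls then were 9 higher and 2 lower for CTCF, 2 higher and 0 lower for RAD21, 2 higher and 6 lower for YAP1, and 0 higher and 14 lower for H3K27ac. Over all tested intervals total scaling gave 1.59% higher and 6.94% lower for RAD21 and 14.3% higher and 10.4% lower for H3K27ac. It gave 5.37% higher and 53.6% lower for CTCF and 1.48% higher and 63.5% lower for YAP1. The YAP1 direction at IER2, IER3 and IER5 is thus relative to the typical interval, apart from the IER3 start, where the log2 fold change was 0.69 without a call, while EGR1 stayed higher for CTCF, RAD21 and YAP1 under each scaling tried.

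The ratio of gene body to start site counts inside a library does not depend on scaling between libraries. At EGR1 the log2 ratio for CTCF was -5.78 and -5.26 with vehicle and -1.4 and -1.22 with sorbitol, a change of 4.21. The change was 2.79 for RAD21 and 2.69 for YAP1, with no overlap between groups. Relative to the start, the coding sequence held more of all 3 proteins with sorbitol. The vehicle ratios rest on few body counts, 11 and 11 for CTCF, 6 and 2 for RAD21 and 9 and 16 for YAP1. EGR1 was also among the genes chosen on this contrast, so its ratios are descriptions. For H3K27ac the ratio was -4.62 and -5.18 with vehicle and -3.98 and -3.28 with sorbitol, a change of 1.27. At IER2 the ratio rose by 1.62 for CTCF, from -0.54 and -0.94 to 1.06 and 0.7, and by 1.39 for YAP1, while for H3K27ac it went from -0.11 and -0.1 to -0.78 and -0.55. The IER2 value hangs on which intervals count as start sites. With a limit of 1000 bp in place of 500 bp the change was 0.37 for CTCF, and for RAD21 -0.54 in place of 0.83. At IER3 the body interval covers the end of the gene and the starts of FLOT1, HCG20 and IER3-AS1, while the start interval covers most of the gene. The IER3 ratio is therefore not one of coding sequence to promoter. IER3 showed no such shift for CTCF, at -0.35 and -0.08 against -0.3 and -0.44. Its YAP1 ratio fell from 0.8 and 0.61 to -0.49 and -0.03, and its RAD21 ratio from 0.51 and -0.07 to -0.58 and -0.41. At EGR2, whose body interval lies upstream of the canonical start, the groups overlapped in all 4 targets. With 2 libraries against 2 an exact permutation test cannot give a p below 0.33, so these are values without a test.

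**Figure D4:**
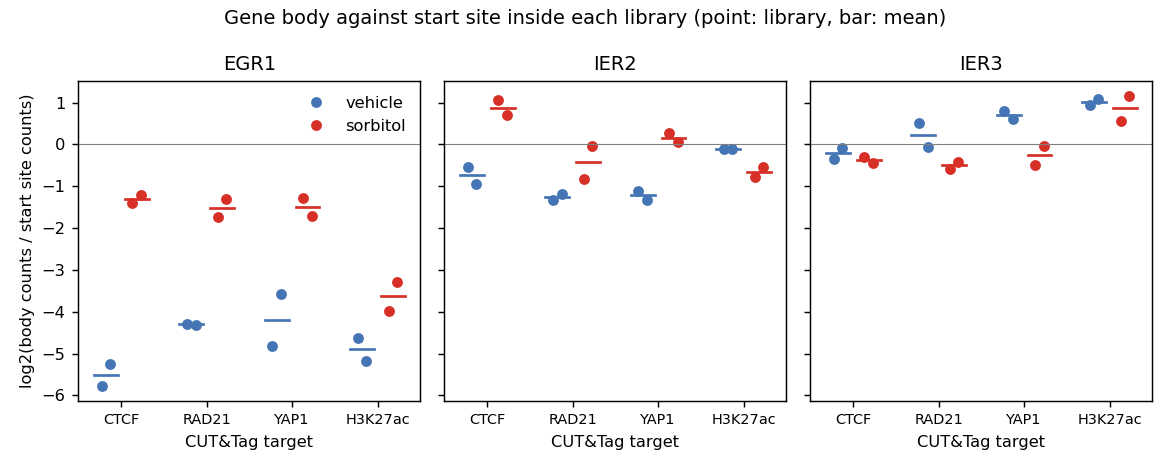
Log2 ratio of gene body to start site counts inside each library at EGR1, IER2 and IER3 for the 4 targets; points are libraries, bars the means of 2 libraries, vehicle in blue and sorbitol in red. At EGR1 all 4 targets lie higher with sorbitol, most for CTCF (change 4.21). At IER2, with start sites within 500 bp, the 3 proteins lie higher and H3K27ac lower. At IER3, where the body interval also holds the starts of FLOT1, HCG20 and IER3-AS1, RAD21 and YAP1 lie lower.

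Whether the proteins and the mark responded differently was tested by an interaction term. The YAP1 response exceeded that of H3K27ac at 9 of 20 tested member intervals and was below it at 0, beside 2.55% above and 3.72% below of all tested intervals. These 9 were both EGR1 intervals, the 4 IER2 intervals from the internal start to the 3′ end, both IER3 intervals and the IER5 start. Under total-count scaling 6 were above and 3 below, beside 0.544% above and 34.1% below of all tested intervals. The CTCF response exceeded that of H3K27ac at 12 of 22 and was below it at 0, beside 9.3% above and 12.3% below of all. The difference was 5.94 ± 0.46 on the log2 scale at the EGR1 body and 2.92 ± 0.15 at its start. None of the 4 EGR2 intervals passed either test. The sorbitol and vehicle libraries are those on which the genes were chosen, so these counts are also descriptions.

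The vehicle libraries were the baseline of the contrast on which the genes were chosen, so values from them are also descriptions, with no p-value. Per length and in vehicle, EGR1's start was at the 96.2th percentile of 17975 start intervals of protein-coding genes for CTCF, at 38.2 CPM per kb, and at the 71.4th percentile for H3K27ac, at 45.9 CPM per kb. The internal IER2 start was at the 99.5th percentile for YAP1, with 43 CPM per kb, and at the 98.1th for RAD21. The IER5 start ranked at the 89.2th percentile for H3K27ac and at the 55.3th for CTCF. The start of IER3 ranked at the 48.8th percentile for H3K27ac and the alternative EGR2 start at the 32.5th. H3K27ac in vehicle thus ranged from the 32.5th to the 91.4th percentile among the 6 start intervals that were lower for H3K27ac with sorbitol.

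In vehicle YAP1 was compared with H3K27ac at each interval, relative to the typical interval. Of 19 member intervals tested 2 held more YAP1 and 5 less, where 19.8% of all tested intervals held more and 21.1% less. The 2 were the internal IER2 start, with a log2 difference of 1.10 ± 0.13, and a flank 6232 bp downstream of the IER5 start, with 2.02 ± 0.36. The IER5 start held less YAP1 for its acetylation, at -1.03 ± 0.12, and EGR1's start did not pass, at 0.23 ± 0.10. Under total-count scaling 1 held more and 12 less, beside 6% more and 51% less of all tested intervals. The IER5 flank was still called higher, at 0.97 ± 0.35, and the IER2 start was not called. With GC-corrected offsets 4 held more and 3 less, beside 20.6% more and 19.1% less of all. EGR1's start was among those with more, at 0.59 ± 0.10. RAD21 was compared with CTCF in the same way at 14 intervals, of which 4 held more RAD21 and 1 less, beside 13.9% more and 16.9% less of all. EGR1's start held less, with a log2 difference of -0.92 ± 0.19, and was also called lower under total-count scaling (-1.47 ± 0.24) and with GC-corrected offsets (-1.38 ± 0.19). The 4 with more were both IER2 starts, the IER3 end and the IER5 start, the last at 1.14 ± 0.26. None of these 4 was called under total-count scaling, and the IER5 start alone was called with GC-corrected offsets. Leaving out 1 library left between 0 and 4 calls, none without CTCF vehicle replicate 2, 1 without CTCF vehicle replicate 1 and 3 without RAD21 vehicle replicate 1.

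Genes of the same kind were taken from a list of 41 other immediate early genes, all of which had an interval at a start. Of their tested start intervals, 40 of 62 were higher and 4 lower for CTCF, 11 of 51 higher and 1 lower for RAD21, 13 of 56 higher and 1 lower for YAP1, and 4 of 66 higher and 38 lower for H3K27ac. Over all start intervals of protein-coding genes 31.3% were higher for CTCF and 29.4% lower for H3K27ac, and 2.74% and 2.36% were higher for RAD21 and YAP1. GADD45B, a stress-induced growth arrest gene, had CTCF at 7.39 CPM with vehicle and 270.0 CPM with sorbitol at its stronger start interval, more than any other gene of the list by log2 fold change (5.20 ± 0.16). FOS, an AP-1 subunit, had CTCF at 6.53 against 29 CPM and H3K27ac at 15 against 15.4 CPM. DUSP1, a phosphatase of MAP kinases, was higher for CTCF, RAD21 and YAP1 and lower for H3K27ac (109 against 57.4 CPM). The start of IER5L, the paralog of IER5, was higher for CTCF (2.48 ± 0.32) and YAP1 (1.96 ± 0.34) and lower for H3K27ac.

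Among 15 upstream regulators and corepressors, 6 of 15 tested start intervals were higher and 1 lower for CTCF, 1 of 12 higher for RAD21, 1 of 18 higher for YAP1, and 3 of 22 higher and 5 lower for H3K27ac. SRF had CTCF at 47.7 CPM with vehicle and 89.6 CPM with sorbitol, and H3K27ac at 112 against 71.8 CPM. NAB2, which EGR1 is known to induce and which represses EGR activity, had CTCF at 13.7 against 28 CPM and H3K27ac at 65 against 42.5 CPM. Over all start intervals of protein-coding genes 31.3% were higher and 7.76% lower for CTCF, and 11.4% higher and 29.4% lower for H3K27ac, so the shares of this list (40.0% and 6.67% for CTCF, 13.6% and 22.7% for H3K27ac) lie near the background. ELK1 and ELK4 passed for none of the 4 targets. CREB1 was higher for H3K27ac, at 97.5 against 118 CPM. Both lists were drawn up with earlier results of these data known, so their counts are no independent evidence of a direction.

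The genes most like EGR1 were sought by Pearson correlation of log2(CPM + 1), centred within each target, over the 16 libraries and 15292 genes. The 5 closest were SNAI1 (r = 0.994), GADD45B (0.988), GFPT2 (0.986), MARCKSL1 (0.982) and GLUL (0.977). SNAI1, a transcription factor of epithelial-mesenchymal transition, differed between sorbitol and vehicle by 2.99 (CTCF), 2.49 (RAD21), 3.25 (YAP1) and -1.37 (H3K27ac) on this log2 scale. Of the other members IER3 was nearest, with r = 0.944 and rank 48, then IER5 with 0.876, IER2 with 0.841 and EGR3 with 0.76. EGR2 had r = -0.499 and rank 13487. The 16 values share their libraries, depth and treatment, and the correlations describe likeness only.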

How the data were processed

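CUT&Tag cuts and tags DNA beside an antibody-bound target, and the tagged DNA was sequenced. The deposited table holds raw, unscaled counts of reads per peak interval from the authors. The submitters' processing notes name Trim Galore, FastQC, BWA 0.7.17, SAMtools, Picard, bedtools 2.31.1, MACS2 2.2.6 and hg38, without settings. Whether peak calling pooled the libraries is not given in the sources used here. The same intervals serve all libraries, and column names give vehicle an earlier time (0 h) than sorbitol (1 h), so time and treatment may differ together. All 74404 intervals lay within hg38 chromosome lengths. Positions are printed 1-based.

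Each target was fitted alone on 4 libraries with edgeR 4.0.16 in R 4.3.3 (robust quasi-likelihood test, two-sided, TMM scaling over tested intervals, filterByExpr with a minimum of 10 counts). A start site interval lies within 500 bp of a member's transcript start, a body interval overlaps the gene otherwise, and the rest are flanks. Standard errors were derived from the F statistic. Body to start ratios added 0.5 to each sum. The fitting step was tested on simulated data. Values per library are given for each member's start and body interval with the highest mean CPM, and for any other called in 3 or more targets; other intervals and list genes named beside them were picked after their values were seen. The CArG and CTCF search inside the intervals and the overlap of calls over all intervals were added after the values were seen. Same-numbered libraries did not deviate together (correlations from -0.009 to 0.006), and no label pairs them. The members and gene lists were chosen with earlier results of these data known. Alternatives were DESeq2 1.42.0 and its size factors, other scalings, filters, one fit on 16 libraries, GC-corrected offsets, the replicate block and leaving out each library.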

Additional observations from a re-analysis of the deposited data

Results flagged for a closer look

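Responses to sorbitol differed between targets at the same intervals by the test of target and treatment together. They differed for YAP1 and H3K27ac at 9 of 20 tested member intervals, and for CTCF and H3K27ac at 12 of 22. All had the protein above the mark under TMM scaling. Of all tested intervals 2.55% lay above and 3.72% below for YAP1, and 9.3% above and 12.3% below for CTCF. Under total-count scaling the YAP1 response lay above at 6 members and below at 3. These counts come from the contrast on which the genes were chosen. The mitochondrial share of the libraries, which rose for CTCF, RAD21 and YAP1 and not for H3K27ac, moved with the difference, and its part was not tested.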

How the results depend on the processing

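Scaling to total counts changed most. It left 2 RAD21 calls, where 8.53% of all tested intervals were called. In vehicle it gave 13 calls for YAP1 against H3K27ac (1 higher, 12 lower), where 57% of all tested intervals were called. For RAD21 against CTCF in vehicle it gave 1 call (lower), where 30.8% of all were called. It also gave a lower YAP1 call at the internal IER2 start (-1.48). The YAP1 log2 fold change turned to -1.10 at the alternative EGR2 start and -0.01 at the IER2 body. It turned to -0.29 at the IER3 end and -0.30 at the IER5 start. A mean of at least 50 counts left 7 CTCF calls and 1 RAD21 call, because fewer intervals were tested. Of all intervals tested in this way 55.5% were called for CTCF and 31.3% for RAD21. RAD21 against CTCF in vehicle had 2 calls without a count filter and 2 with GC-corrected offsets, where 18.9% and 24.5% of all were called. Its calls also changed with each library left out, as given above. With start sites within 1000 bp the IER2 body to start change was 0.37 for CTCF, -0.54 for RAD21 and 1.10 for YAP1. H3K27ac at the EGR1 body, near 0 in the main fit, was 0.09 under total scaling, with or without dominant intervals, in one fit on 16 libraries and with GC-corrected offsets, 0.07 with the replicate block and GC-corrected offsets, and -0.47 to 0.30 with each library left out. YAP1 at the alternative EGR2 start was -0.09 without a filter and -0.13 in one fit on 16 libraries. YAP1 at the internal IER2 start was -0.15 to 0.07 with each library left out. The cause was not tested where none is given.

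With the replicate block the member calls were 14 for CTCF, 3 for RAD21, 6 for YAP1, 14 for H3K27ac, 9 for the YAP1 and 12 for the CTCF difference from H3K27ac, and in vehicle 7 for YAP1 against H3K27ac and 4 for RAD21 against CTCF. Among named intervals the block ended 1 call, RAD21 at the IER2 body. A non-specific antibody was not among the libraries analysed here, and counts under 10 limit EGR3 and EGR4.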
